A study of Rattus norvegicus with 62 samples.

Results

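The genes for 3 subunits of the N-methyl-D-aspartate (NMDA) receptor, Grin1 (ENSRNOG00000011726), Grin2a (ENSRNOG00000033942), and Grin2b (ENSRNOG00000008766), were followed in amygdala RNA-seq of 62 male Long Evans rats. They were selected by Ensembl ID and are 3 of the 32545 genes in the count table. All 3 were among the 16535 genes with enough counts for testing. The animals formed 4 groups, sub-acute sham (n = 17), sub-acute blast (n = 17), chronic sham (n = 14), and chronic blast (n = 14). Rats entered the study at about 10 to 12 weeks of age, and blast animals received 3 overpressure exposures of 74.5 kPa in a shock tube, with 24 h between exposures, under isoflurane anesthesia. Sham animals were handled and anesthetized in the same way without the overpressure. Sub-acute animals, which the sample labels call acute, were studied 1 to 1.5 months and chronic animals 12 to 14 months after exposure. Every group went through behavioral testing before tissue was taken, so there was no untested group, and the time-points differ in age as well as in time since exposure. Each library came from 1 animal, from 1.5 mm punches of the central and basolateral amygdala of both hemispheres. Single animals are named by the sample titles, in which A or C stands for acute or chronic, S or B for sham or blast, and the number is that of the animal.

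NMDA receptors are glutamate-gated cation channels that pass calcium when glutamate binds while the membrane is depolarized, and they trigger the long-lasting changes in synaptic strength that accompany learning. Grin1 encodes GluN1, the obligatory subunit that binds the co-agonist glycine or D-serine. Grin2a and Grin2b encode GluN2A and GluN2B, which bind glutamate and set the kinetics of the channel, GluN2B giving the slower decay. In the forebrain GluN2B predominates early in life and GluN2A rises after birth, and blocking NMDA receptors in the basolateral amygdala impairs the acquisition of conditioned fear. The study asked how blast and the time since blast alter the amygdala transcriptome. The questions here were whether the message for any of these subunits, or the balance of Grin2a to Grin2b, differed with blast or with time.

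The total count per library ranged from 18220986 to 78585782. Of the 62 libraries, 2 held under 25000000 counts, chronic blast animal CB149 (18220986) and chronic sham animal CS115 (20582780). These libraries also had the lowest scores on the first principal component of all genes centered on group means, which held 21.0% of the variance. Most results that rest on them are therefore given with and without them. Ranks of genes by likeness to a subunit, correlations with this component, and variance ratios over all genes are given only with them. All 28 chronic animals carry animal numbers that begin with 1, as do 5 of 17 sub-acute blast and 2 of 17 sub-acute sham animals. The sources used here do not explain the numbers, and number series and time-point largely coincide. The gene table at hand paired 0 of the 32545 IDs with a symbol, so other glutamate receptor genes, cell-type markers, and the amygdala label itself could not be examined, and no other gene is named. In such bulk tissue, fewer neurons and less message per neuron cannot be told apart.

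**Figure D1:**
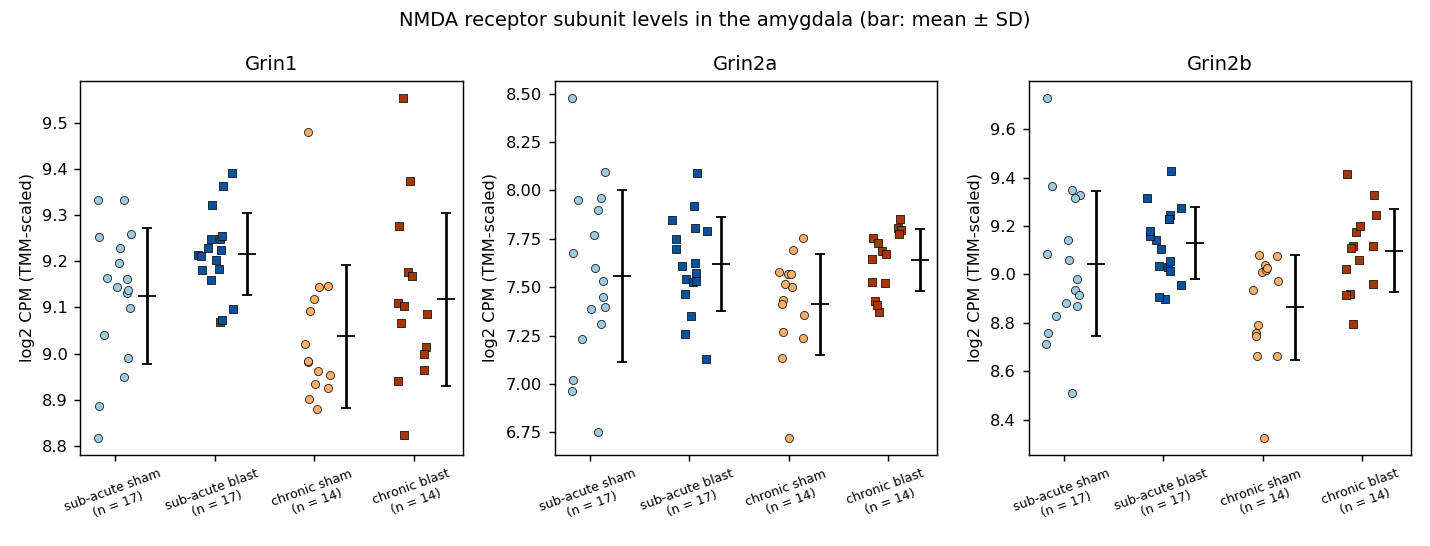
Level of Grin1, Grin2a, and Grin2b in each of the 62 animals as TMM-scaled log2 CPM (read counts relative to library size), by group, with the mean ± SD beside the points. Every pair of groups overlapped for every gene, Grin2a and Grin2b spread most in sub-acute sham animals, and the 2 highest Grin1 points at the chronic time-point are the libraries with under 25000000 counts.

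All 3 subunits were abundantly sequenced, with between 3180 and 50812 reads per gene in every library. Levels are given as log2 CPM after TMM scaling, which corrects for differences in library composition. Grin1 lay above 98.8% of the genes tested in mean log2 CPM, Grin2b above 98.6%, and Grin2a above 93.8%. These ranks are not corrected for transcript length, so levels are compared between animals and not between genes.

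Grin1 log2 CPM ran from 8.82 to 9.33 in sub-acute sham animals, with a median of 9.14 and a mean of 9.13 ± 0.15 (SD, n = 17). It ran from 9.07 to 9.39 in sub-acute blast animals, with a median of 9.21 and a mean of 9.22 ± 0.09 (SD, n = 17). Blast animals thus lay within the upper part of the sham range and slightly above it. In chronic sham animals it ran from 8.88 to 9.48, with a median of 8.98 and a mean of 9.04 ± 0.16 (SD, n = 14). In the chronic blast group Grin1 ranged from 8.82 to 9.55, with a median of 9.09 and a mean of 9.12 ± 0.19 (SD, n = 14). The order of the group means ran from sub-acute blast down through sub-acute sham and chronic blast to chronic sham. Each step in it was smaller than the SD of sub-acute sham animals. That SD describes single animals and is no test of the means, which are compared further below. The highest chronic values came from the libraries with under 25000000 counts.

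Grin2a log2 CPM ran from 6.75 to 8.48 in sub-acute sham animals, with a median of 7.53 and a mean of 7.56 ± 0.44 (SD, n = 17). In sub-acute blast animals the range was 7.13 to 8.09, with a median of 7.61 and a mean of 7.62 ± 0.24 (SD, n = 17). Sham animals thus reached both above and below every blast animal at this time-point. Chronic sham animals ranged from 6.72 to 7.75, with a median of 7.47 and a mean of 7.41 ± 0.26 (SD, n = 14). Chronic blast animals ranged from 7.37 to 7.85, with a median of 7.68 and a mean of 7.64 ± 0.16 (SD, n = 14). Chronic blast animals thus had the highest and chronic sham animals the lowest mean. Each step in the order of the 4 means was smaller than the SD of single chronic sham animals, which again is no test of the means.

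Grin2b log2 CPM ran from 8.51 to 9.73 in sub-acute sham animals, with a median of 8.98 and a mean of 9.05 ± 0.30 (SD, n = 17). In sub-acute blast animals it ran from 8.90 to 9.43, with a median of 9.14 and a mean of 9.13 ± 0.15 (SD, n = 17). The sham range thus enclosed the blast range, as it did for Grin2a. Chronic sham animals ranged from 8.33 to 9.08, with a median of 8.96 and a mean of 8.86 ± 0.22 (SD, n = 14). Chronic blast animals ranged from 8.79 to 9.42, with a median of 9.11 and a mean of 9.10 ± 0.17 (SD, n = 14). The means of sub-acute blast, chronic blast, and sub-acute sham animals lay close together, and chronic sham animals were lowest. The gap was less than the SD of single animals in the sub-acute sham group. The fitted difference between chronic blast and chronic sham animals, 0.23, was slightly more than the SD of either group (0.17 and 0.22, respectively). Neither comparison is a test of the means.

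To ask whether blast altered subunit message sub-acutely, levels were compared between blast and sham animals in the limma fit over all 62 animals, with adjustment over 16535 genes. All 3 subunits had slightly higher fitted levels in sub-acute blast animals and none passed the test. The log2 fold change of Grin1 was 0.09 (95% confidence interval -0.01 to 0.19), with a raw p of 0.0823 and an adjusted p of 0.770 from limma. Of 17 blast animals, 14 lay above the sham median for Grin1, 2 lay above every sham animal, and 5 of 17 sham animals lay below every blast animal. The log2 fold change was 0.06 for Grin2a (-0.14 to 0.27, adjusted p = 0.877 from limma) and 0.09 for Grin2b (-0.06 to 0.23, adjusted p = 0.794 from limma). At an adjusted p under 0.05, 0 of 3 subunits and 0% of all genes were called, and 0 of 3 subunits against 5.18% of all genes had a raw p under 0.05. edgeR and DESeq2 likewise called 0 of the 3. Without the chronic libraries under 25000000 counts, which also set the spread of this fit, Grin1 had a raw p of 0.0391 and an adjusted p of 0.601 from limma at the same log2 fold change of 0.09. The log2 fold change of Grin1 was 0.036 with surrogate variables (raw p = 0.114 from limma) and 0.037 in number series 1 alone (raw p = 0.790). Over 10 other settings the log2 fold change ran from 0.011 to 0.19 for Grin2a and from 0.053 to 0.18 for Grin2b, with adjusted p of 0.694 or more.

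**Figure D2:**
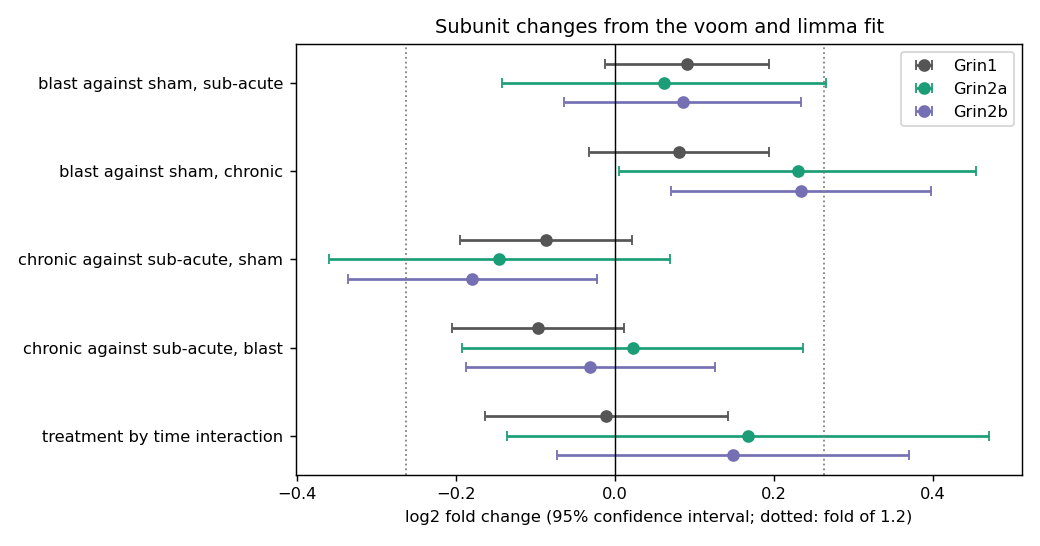
Log2 fold change of each subunit in the 5 comparisons, from the limma fit over 62 animals, with 95% confidence intervals and dotted lines at a fold of 1.2 in either direction. Grin2b in the chronic comparison of blast with sham (0.23) and in sham over time (-0.18), and Grin2a in the chronic comparison (0.23), have intervals that leave out 0 before adjustment.

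At the chronic time-point Grin2a and Grin2b, the glutamate-binding subunits, were 1.17-fold and 1.18-fold higher on average in blast than in sham animals, and Grin1, the obligatory subunit, was 1.06-fold higher. None of these differences passed adjustment over all genes. For Grin2b, 8 of 14 blast animals lay above the highest sham animal and 6 of 14 sham animals lay below the lowest blast animal. The log2 fold change was 0.23 (95% confidence interval 0.07 to 0.40, standard error 0.08), with a raw p of 0.00578 and an adjusted p of 0.901 from limma. Only 67 of the 16535 genes, 0.405%, had a smaller raw p in this comparison, but with 833 genes at a raw p under 0.05, 5.04% of those tested, no gene passed adjustment. edgeR and DESeq2 also called 0 genes here, with 1013 and 1138 at a raw p under 0.05. Over all genes the median log2 fold change was 0.0016, with quartiles of -0.08 and 0.08. For Grin2a, 4 of 14 blast animals lay above every sham animal and 5 of 14 sham animals lay below every blast animal, with a log2 fold change of 0.23 (0.01 to 0.45), a raw p of 0.0451, and an adjusted p of 0.901 from limma. Grin1 had a log2 fold change of 0.08 (-0.03 to 0.19) and an adjusted p of 0.909 from limma. Thus 2 of 3 subunits had a raw p under 0.05, both higher in blast, against 2.38% of all genes called higher by this rule, and 0 of 3 passed adjustment against 0% of all genes. Grin2a and Grin2b varied together from animal to animal (r = 0.907 in chronic sham and 0.671 in chronic blast animals), so these are not independent counts.

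The size of the chronic difference was nearly the same without the shallow libraries, and all chronic animals belonged to number series 1. Without the libraries under 25000000 counts the log2 fold change was 0.23 for Grin2b (raw p = 0.0110 from limma) and 0.23 for Grin2a (raw p = 0.0566). Over 10 other settings in limma, edgeR, or DESeq2, the raw p of Grin2a ran from 0.00806, in number series 1 alone, to 0.885. Its adjusted p was 0.726 or more in all of them. When each of the 28 chronic animals was left out in turn, which was chosen after seeing the data, the log2 fold change of Grin2b stayed between 0.19 and 0.26 with a raw p between 0.00226 and 0.0214. That of Grin2a stayed between 0.17 and 0.26, with a raw p under 0.05 in 12 of 28 refits. The lowest value for both genes came without chronic sham animal CS112, which had the lowest Grin2a (6.72) and Grin2b (8.33) of its group. With 9 surrogate variables in the model, which absorb variation shared by many genes, the log2 fold change was 0.034 for Grin2b (raw p = 0.345 from limma) and -0.0067 for Grin2a (raw p = 0.885). What these variables represent was not tested.

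In sham animals all 3 subunits had lower fitted levels at the chronic than at the sub-acute time-point. Grin2b had a log2 fold change of -0.18 (95% confidence interval -0.34 to -0.02), with a raw p of 0.0253 and an adjusted p of 0.212 from limma. Grin2a had a log2 fold change of -0.15 (-0.36 to 0.07, adjusted p = 0.476 from limma) and Grin1 of -0.09 (-0.19 to 0.02, adjusted p = 0.390 from limma). For Grin2b, 7 of 17 sub-acute sham animals lay above every chronic sham animal, and for Grin2a 6 of 17 did. None of the subunits was called at an adjusted p under 0.05, where 2.19% of all genes were, and 1 of 3 had a raw p under 0.05, against 18% of all genes. That gene was Grin2b, against 9.65% of all genes lower at this threshold, and 1972 genes, 11.9%, had a smaller raw p than Grin2b. Within number series 1, where only 2 sub-acute sham animals remain against 14 chronic ones, the log2 fold change was -0.083 for Grin2b (raw p = 0.568 from limma) and -0.16 for Grin1 (raw p = 0.198). For Grin2a it was -0.0067 (raw p = 0.967 from limma), and with the log2 library total in the model -0.017 (raw p = 0.871).

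In blast animals Grin1 had a lower mean at the chronic time-point, and the means of Grin2a and Grin2b were nearly level. Grin1 had a log2 fold change of -0.10 (95% confidence interval -0.21 to 0.01, adjusted p = 0.220 from limma), with 6 of 14 chronic animals below every sub-acute animal and 1 above them all. That animal, CB149, gave the shallowest library. Without both libraries under 25000000 counts, the log2 fold change of Grin1 was -0.13 with an adjusted p of 0.0425 from limma, and it was -0.12 in sham (adjusted p = 0.175). That fit called 16.5% of all genes in blast and 1.87% in sham. Grin2a had a log2 fold change of 0.02 (-0.19 to 0.24, adjusted p = 0.911 from limma) and Grin2b of -0.03 (-0.19 to 0.13, adjusted p = 0.828 from limma). In this model without covariates, the call for Grin1 therefore depended on 2 libraries, while neither glutamate-binding subunit was called with or without them. Of the 3 subunits, 0 were called in the fit over all animals, where 14.9% of all genes had an adjusted p under 0.05. A raw p under 0.05 was reached by 0 of 3, against 29.8% of all genes.

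With the 9 surrogate variables in the model, Grin1 and Grin2b were called lower at the chronic time-point in both treatments, in a fit that called 9.46% of all genes in sham and 5.08% in blast. The log2 fold change of Grin2b was -0.16 in sham (adjusted p = 0.00139 from limma) and -0.17 in blast (adjusted p = 0.00231), and that of Grin1 was -0.12 in sham (adjusted p = 0.00112) and -0.12 in blast (adjusted p = 0.00949). Grin2a was -0.11 in sham (adjusted p = 0.0793 from limma) and -0.14 in blast (adjusted p = 0.0697). With number series as the covariate instead, neither gene was called, against 0.0121% of all genes in sham and 1.94% in blast. The log2 fold change of Grin1 was then -0.13 in sham (adjusted p = 0.861 from limma) and -0.13 in blast (adjusted p = 0.309). That of Grin2b was -0.15 in sham (adjusted p = 0.872 from limma) and 0.0029 in blast (adjusted p = 0.993). The size of the Grin1 difference was thus kept, whereas that of Grin2b in blast was not. That fit gives the only animal of series 6, a sub-acute sham animal, a term of its own and so in effect drops it.

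**Figure D3:**
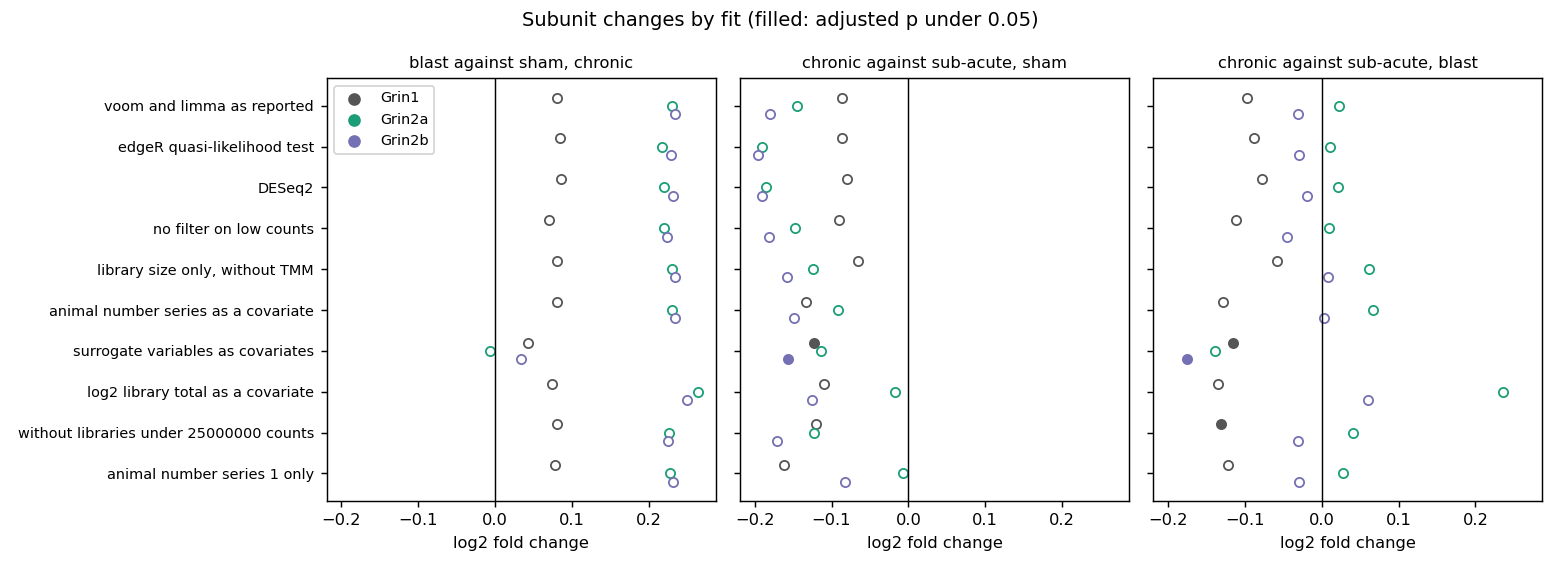
Log2 fold change of each subunit in 3 comparisons under the reported fit and 9 other fits, with filled points at an adjusted p under 0.05. In the chronic comparison of blast with sham Grin2a and Grin2b stay near 0.23 in every fit except with surrogate variables, and over time the filled points are Grin1 and Grin2b with surrogate variables and Grin1 in blast without the libraries under 25000000 counts.

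Whether the difference between time-points itself differed by treatment was tested as an interaction, positive where blast animals gained more or lost less than sham animals. It was -0.01 on the log2 scale for Grin1 (95% confidence interval -0.16 to 0.14), 0.17 for Grin2a (-0.14 to 0.47), and 0.15 for Grin2b (-0.07 to 0.37), with adjusted p of 0.992, 0.882, and 0.854 from limma. At an adjusted p under 0.05, 0 of 3 subunits and 0% of all genes were called, and at a raw p under 0.05, 0 of 3 against 5.56% of all genes. So the pattern of the group means, in which Grin2a and Grin2b were lower with time in sham and nearly level in blast, did not exceed what the spread among animals allows. The comparisons share groups of animals, and the fitted values above are therefore not independent of each other.

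The balance of Grin2a to Grin2b, which shifts as forebrain synapses mature, was compared as the log2 ratio of read counts within each library. This ratio needs no scaling to library size, but without transcript lengths its absolute size is not a ratio of molecules. In sub-acute sham animals there were between 0.295 and 0.425 Grin2a reads per Grin2b read, with a median of 0.363 and a mean log2 ratio of -1.49 ± 0.16 (SD, n = 17). In sub-acute blast animals the ratio ran from 0.282 to 0.404 with a median of 0.357, and the mean log2 ratio was -1.51 ± 0.12 (SD, n = 17). Chronic sham animals ranged from 0.325 to 0.400 with a median of 0.370 and a mean log2 ratio of -1.45 ± 0.11 (SD, n = 14). Chronic blast animals ranged from 0.307 to 0.448 with a median of 0.363 and a mean log2 ratio of -1.46 ± 0.13 (SD, n = 14). The 4 groups lay almost on top of each other, and the ratio varied less between animals of a group than the Grin2a level did.

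**Figure D4:**
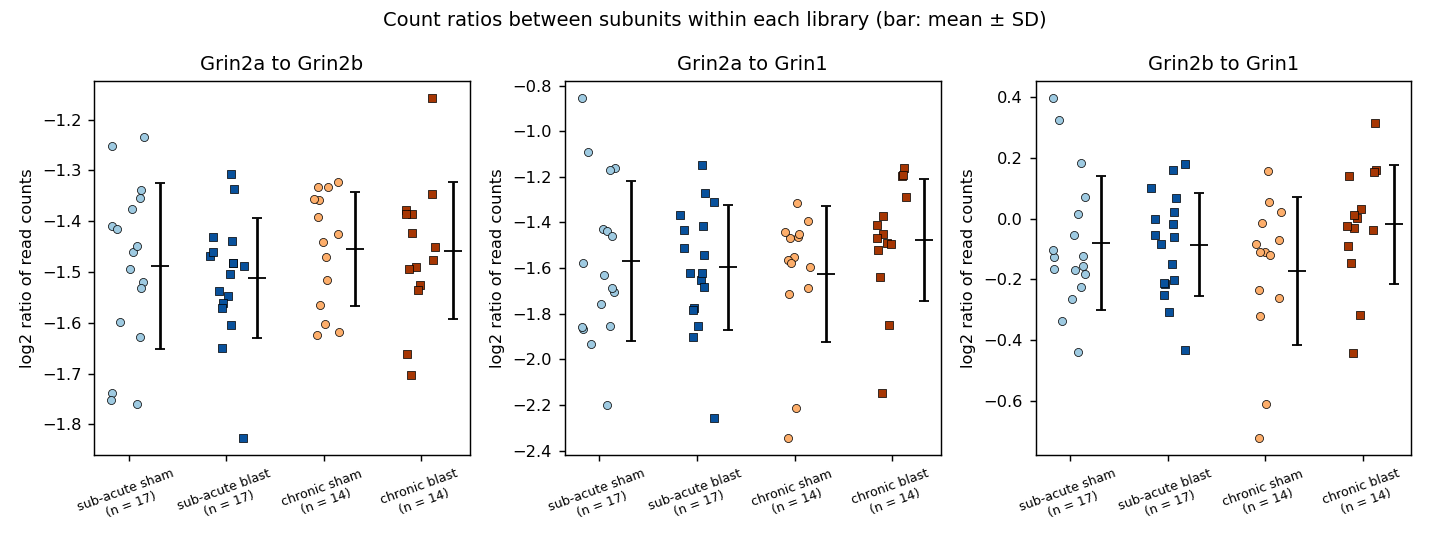
Log2 ratio of read counts between pairs of subunits in each animal, by group, with the mean ± SD beside the points. The Grin2a to Grin2b means lie between -1.51 and -1.45 in all 4 groups, and the ratios to Grin1 spread more widely.

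Between blast and sham animals the mean log2 ratio of Grin2a to Grin2b differed by -0.023 (standard error 0.049) sub-acutely and by -0.0041 (standard error 0.047) chronically. Between chronic and sub-acute animals it differed by 0.035 (standard error 0.050) in sham and by 0.053 (standard error 0.046) in blast, and the interaction was 0.019 (standard error 0.068). By permutation tests, two-sided with 100000 resamples, p was 0.65, 0.93, 0.51, 0.25, and 0.78 in this order, and adjusted p was between 0.58 and 0.93 over 15 tests, which cover 3 ratios in 5 comparisons. Between chronic blast and chronic sham animals, where both levels had a log2 fold change of 0.23, the ratios differed by a fold of 0.997.

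Against Grin1, the ratios were somewhat higher in chronic blast than in chronic sham animals. The mean log2 ratio of Grin2b to Grin1 was -0.02 ± 0.19 (SD, n = 14) in chronic blast and -0.17 ± 0.24 (SD, n = 14) in chronic sham animals, a difference of 0.15 (permutation p = 0.076, adjusted p = 0.58). For Grin2a to Grin1 the difference was 0.15 (permutation p = 0.17, adjusted p = 0.58). Without CS115 and CB149, the difference was 0.14 for Grin2b to Grin1 (permutation p = 0.046, adjusted p = 0.33) and 0.15 for Grin2a to Grin1 (permutation p = 0.083, adjusted p = 0.33). The groups overlapped, with 2 of 14 blast animals above every sham animal for Grin2b to Grin1 and 4 of 14 for Grin2a to Grin1. The lowest values of both ratios at each treatment in the chronic cohort came from the libraries with under 25000000 counts, animals CS115 and CB149. In reads, Grin1 made up 42.6% ± 3.5 (SD, n = 14) of the sum of the 3 subunits in chronic blast, and 45.2% ± 4.4 (SD, n = 14) in chronic sham animals. Without the shallow libraries these shares were 42.0% ± 2.7 (SD, n = 13) and 44.5% ± 3.4 (SD, n = 13).

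The ratio of Grin2a to Grin2b moved with sequencing depth. Over the 62 animals centered on group means, it had a Pearson r of 0.516 with the log2 library total (permutation p = 4e-05, adjusted p = 0.00024 over 6 measures) and a Spearman rho of 0.457 (p = 0.00034, adjusted p = 0.0020), and r was 0.447 without the 2 libraries farthest from the median. Deeper libraries thus had relatively more Grin2a. The Grin2a level followed depth (r = 0.401, adjusted permutation p = 0.0023) and the Grin2b level did so less clearly (r = 0.237, adjusted permutation p = 0.094). For Grin1 r was -0.141 (adjusted permutation p = 0.33), but 0.319 without the 2 farthest libraries, against 0.272 for Grin2b. Ratios to Grin1 also moved with depth, with r of 0.473 for Grin2a (adjusted permutation p = 0.0009) and 0.35 for Grin2b (adjusted permutation p = 0.013). Without the 2 farthest libraries these were 0.290 and 0.112. Chronic libraries were shallower than sub-acute ones, with medians of 37460121 counts in chronic blast and 54959799 in sub-acute blast animals. A slope on the log2 library total, fitted within groups, was then subtracted from the ratio. The ratio was higher at the chronic time-point in blast animals by 0.18 on the log2 scale (permutation p = 0.00011, adjusted p = 0.0016). In sham animals it was higher by 0.11 (permutation p = 0.017, adjusted p = 0.26). The permutations did not refit the slope, so these p-values leave out its error. With the log2 library total in the limma model, the Grin2a level in blast animals was higher by 0.24 at the chronic time-point, with a raw p of 0.0495 and an adjusted p of 0.225 from limma. The part of depth in these values was not tested further.

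**Figure D5:**
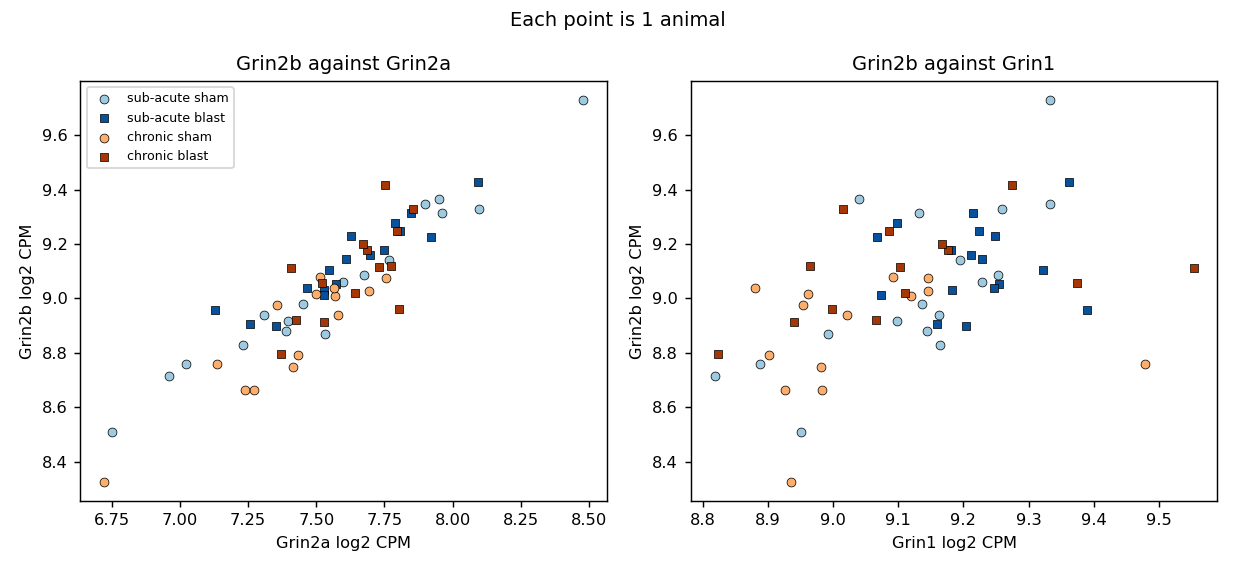
Grin2b level plotted against Grin2a level and against Grin1 level, both in TMM-scaled log2 CPM, with 1 point for each of 62 animals. Over all animals centered on group means, Grin2a and Grin2b lie along a narrow band (r = 0.917) and Grin1 and Grin2b form a loose cloud (r = 0.409). The groups differ, with r of 0.671 for Grin2a and Grin2b in chronic blast and 0.714 for Grin1 and Grin2b in sub-acute sham animals.

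Across animals Grin2a and Grin2b varied together, more closely than either did with Grin1. After centering on group means, Pearson r between Grin2a and Grin2b was 0.917 and Spearman rho 0.886 over 62 animals (permutation within groups, p = 1e-05 for each, the lowest value possible with 100000 resamples, and adjusted p = 5e-05 over 15 correlations). Without the 2 animals farthest from the median of Grin2a, r was 0.886. Within groups r was 0.978 in sub-acute sham, 0.927 in sub-acute blast, 0.907 in chronic sham, and 0.671 in chronic blast animals, with a largest adjusted permutation p of 0.018. It was 0.843 within number series 1 (35 animals) and 0.974 within series 2 (26 animals). In the sub-acute sham group the animals at the extremes were the same for both genes, with animal AS208 highest for Grin2a (8.48) and Grin2b (9.73) and AS215 lowest for both (6.75 and 8.51). With the surrogate variables removed from each gene r was 0.687.

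Grin1 followed Grin2b with an r of 0.409 and a rho of 0.413 over the 62 centered animals (permutation p = 0.0015 and 0.0014, adjusted p = 0.0033 and 0.0042), and Grin2a with an r of 0.261 and a rho of 0.220 (permutation p = 0.040 and 0.094, adjusted p = 0.067 and 0.16). In sub-acute sham animals r was 0.714 for Grin2b and 0.736 for Grin2a. In sub-acute blast animals r was 0.053 for Grin2b and -0.17 for Grin2a, in chronic sham animals 0.168 and 0.056, and in chronic blast animals 0.411 and -0.17. The chronic values rested on the shallow libraries, which had the highest Grin1 of their groups (9.48 and 9.55). Without CS115, r in chronic sham animals was 0.499 for Grin2b and 0.553 for Grin2a, and without CB149 it was 0.536 and 0.158 in chronic blast animals. Leaving out instead the 2 animals farthest from the median of Grin1 gave 0.437 and 0.463 in chronic sham, 0.722 and 0.414 in chronic blast, and 0.674 and 0.641 in sub-acute sham animals. The difference between groups in r was not tested. Without both shallow libraries, r over the remaining 60 animals was 0.531 between Grin1 and Grin2b and 0.440 between Grin1 and Grin2a. Grin1 also followed the first principal component of all genes (r = -0.675), while Grin2a (r = 0.212) and Grin2b (r = 0.00069) hardly did. The median absolute r with this component over all genes was 0.448. Both shallow libraries, which had the lowest scores on it, are included in these values, and r was not taken without them.

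Of all 16534 other genes tested, the gene whose level followed Grin2a most closely was Grin2b, and the gene that followed Grin2b most closely was Grin2a. Likeness was taken as Pearson r over the 62 animals after centering on group means, and the median r over all genes was near 0 for both (0.0013 for Grin2a and -0.0079 for Grin2b). The next gene in the list for Grin2a was ENSRNOG00000003121 (r = 0.901), which was also the third for Grin2b (r = 0.854). For Grin1, the closest gene was ENSRNOG00000007806 (r = 0.905). Grin2b came at rank 3354 for Grin1, with 20.3% of genes more alike, and Grin2a at rank 4781, with 28.9%. These ranks include the shallow libraries of CS115 and CB149, without which r with Grin1 rose to 0.531 for Grin2b and 0.440 for Grin2a. Ranks without these libraries were not taken. All values in such a correlation come from the same libraries and share their depth and scaling.

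The spread of the subunits between animals is given as a description without a test, beside that of all genes. Among sub-acute animals the variance of log2 CPM in blast divided by that in sham was 0.371 for Grin1, 0.299 for Grin2a, and 0.246 for Grin2b, against a median of 0.806 over all genes tested, and only 3.28% of genes had a lower ratio than Grin2b. At the chronic time-point the ratio of blast to sham was 1.46 for Grin1, 0.376 for Grin2a, and 0.618 for Grin2b. The median over all genes was 1.27 with the shallow libraries included, and it was not taken without them. Single animals decided the chronic ratios of the subunits. Without CS112 that of Grin2b was 1.17 and that of Grin2a 0.805, and that of Grin1 was 4.08 without CS115 and 0.873 without CB149. The SD of Grin2a was 0.44 in sub-acute sham animals and at least 0.39 when any 1 of them was left out, against 0.24 in sub-acute blast animals. In chronic sham animals it was 0.26, and 0.18 without animal CS112, against 0.16 in chronic blast animals.

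Most genes were more variable at the chronic than at the sub-acute time-point, and Grin2a was less so, again as a description. The values over all genes include the shallow libraries of CS115 and CB149 and were not taken without them. The ratio of chronic to sub-acute variance had a median over all genes of 1.42 in sham and 2.41 in blast animals. For Grin2a it was 0.349 in sham and 0.440 in blast, and 2.45% and 1.37% of genes had lower ratios. For Grin2b it was 0.522 in sham and 1.31 in blast. Without CS112 the ratio in sham was 0.163 for Grin2a and 0.276 for Grin2b. Grin1 lay on the other side in blast animals, with a ratio of 4.37, above 77.8% of genes, or 2.62 without CB149. In sham animals the ratio of Grin1 was 1.11, above 37.1% of genes, or 0.397 without CS115. The SD of Grin1 in chronic blast animals was 0.19 with and 0.145 without the library of animal CB149. In chronic sham animals the SD of Grin1 was 0.16 with and 0.0927 without animal CS115.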

How the data were processed

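Amygdala RNA was sequenced from 62 rats. The authors made rRNA-depleted stranded libraries, aligned reads to Rnor_6.0 with STAR 2.4.2a, and counted them per Ensembl gene with featureCounts 1.4.3-p1 per the submitters' notes, which gave the raw counts that were deposited. The strand setting and the treatment of reads mapping to several places are not given in the sources used here. Groups came from sample titles. The table had 2 columns that match no sample, which were not used. The members and tests were chosen with earlier results of these data known, and the 3 subunits are named in every comparison.

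Levels were tested with TMM (edgeR 4.0.16), voom, and limma 3.58.1 in R 4.3.3, as 4 group means over 62 animals and Benjamini-Hochberg adjustment over 16535 genes, called at an adjusted p under 0.05. Log2 CPM (counts scaled to library size) used a prior count of 2. Ratios and correlations were tested by permutation with 100000 resamples (numpy 2.4.6). On simulated counts for 16402 genes with 200 changed 2-fold in chronic blast animals, the fit recovered 90% in the chronic comparison of blast with sham, with 4 false calls. Grin2b differed there by only 1.18-fold, and the simulated counts held no variation shared between genes. This recovery therefore does not give the power for differences of the size seen here. Other settings tried were DESeq2 1.42.0, edgeR with its quasi-likelihood test, no filter, no TMM, number series, surrogate variables (sva 3.50.0) or library total as covariates, subsets of libraries, and a fold threshold of 1.2. Leaving out single animals, and ratios to Grin1, shares, and correlations without shallow libraries or surrogate variables, were added after seeing the data. The lists of related genes and cell-type markers were not run, because 0 IDs were paired with symbols.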

Additional observations from a re-analysis of the deposited data

How the results depend on the processing

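For subunit levels and the Grin2a to Grin2b ratio, 157 values under other settings kept their direction and, where tested, their side of the threshold. Another 6 newly passed it, and 17 changed sign. Not all of the 157 could have changed. The fold threshold reuses the reported levels and can only remove calls. The number series and series 1 alone leave the chronic ratio as it was, and leaving out the shallow libraries, all chronic, does so for the sub-acute ratio. The ratio taken as a difference of voom log2 fold changes has no p-value, so only its direction counts here. None of the reported level differences was called, so a change of sign moves a value across 0 without ending a call. With surrogate variables, Grin1 (-0.12 in sham and -0.12 in blast) and Grin2b (-0.16 and -0.17, respectively) were called lower with time. Signs turned for Grin2a in the chronic blast comparison (-0.0067), over time in blast (-0.14), and in the interaction (-0.025), for Grin2b in the interaction (-0.019), and for Grin1 in the interaction (0.0069). Without libraries under 25000000 counts Grin1 over time in blast was called (-0.13), and the chronic ratio turned (0.0017). Grin2b over time in blast turned without TMM (0.0083), with the number series (0.0029), and with the library total (0.060). The Grin1 interaction turned with DESeq2 (0.0025), without TMM (0.0070), with the number series (0.0051), and in series 1 alone (0.041). With the library total the ratio over time in blast was called (0.18) and the chronic ratio turned (0.016). That call rests on a permutation p that leaves out the error of the depth slope. In series 1 alone the sub-acute ratio (0.015) and the interaction of the ratio (-0.019) turned, and with medians that interaction was -0.0034. The cause was not tested. Leaving out 1 chronic animal at a time gave 84 chronic differences between blast and sham, from 0.046 to 0.12 for Grin1, 0.17 to 0.26 for Grin2a, and 0.19 to 0.26 for Grin2b, with no call.

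Of all genes, 362 were called over time in sham, against 638 with DESeq2, 2 with the number series, 1565 with surrogate variables, 163 with the library total, and 1 in series 1 alone. In blast 2456 were called, against 6562 without a filter, 321 with the series, 840 with surrogate variables, 630 with the library total, 14 in series 1 alone, and 1609 at a fold of 1.2. Sub-acutely between blast and sham 0 were called, against 1 in series 1 alone. No paired analysis was possible because each animal belongs to a single group and no animal number recurs between groups. Depth did not limit the counts of these genes, but it moved with the ratio and with time-point.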
